A study of Homo sapiens with 9 samples.

Results

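Polyamine metabolism was followed through 10 genes, picked by gene symbol: 4 enzymes of synthesis (ODC1, AMD1, SRM and SMS), 3 enzymes of breakdown (SAT1, SMOX and PAOX) and 3 proteins that control ornithine decarboxylase (OAZ2, AZIN1 and AZIN2). All 10 were present among the 19706 gene symbols of the deposited table. The table holds polyadenylated RNA levels of 3 human neuroblastoma cell lines, each with 3 libraries from untreated cells. Kelly and BE(2)C carry an amplified MYCN oncogene and SH-SY5Y does not. BE(2)C is a clone of the line SK-N-BE(2), and SH-SY5Y is a subclone of SK-N-SH. Nothing in the labels says that the 3 libraries of a line came from separate cultures; the p-values cover the variation among these libraries alone, and it may be technical. Only 1 line lacks the amplification, so an effect of MYCN and any other property of SH-SY5Y cannot be told apart.

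Polyamines are small positively charged molecules that bind RNA, DNA and chromatin and are needed by dividing cells. Ornithine decarboxylase (ODC1) turns ornithine into putrescine. S-adenosylmethionine decarboxylase (AMD1) supplies the aminopropyl groups with which spermidine synthase (SRM) and spermine synthase (SMS) build spermidine and spermine. In the return direction, SAT1 acetylates spermidine and spermine, PAOX oxidises the acetylated forms, and SMOX oxidises spermine directly. Antizymes such as OAZ2 bind ornithine decarboxylase and send it to the proteasome, and the antizyme inhibitors AZIN1 and AZIN2 bind antizyme in its place. ODC1 is a well-known target of MYC-family transcription factors, and its inhibitor difluoromethylornithine is used in neuroblastoma. Ornithine decarboxylase, AMD1 and the antizymes are also controlled by translation and protein turnover, which RNA levels do not show.

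Sequence around the start sites of 3 synthesis genes is shown because MYC-family proteins bind the E-box CACGTG, and ODC1 is the textbook example. The pieces come from RefSeq start-site windows on GRCh38.p14, with exonic bases left out, and are written 5′ to 3′ on the strand of the gene with CACGTG in capitals. The ODC1 piece, chr2:10447983-10448120 on the minus strand, lies in the first intron of the GENCODE gene model and holds 2 matches, at chr2:10448036-10448041, upstream of the RefSeq start at 10448012, and at chr2:10448002-10448007, downstream of it. A second RefSeq window of ODC1 (chr2:10448278-10448577) holds none. The SRM piece, chr1:11060025-11060268 on the minus strand, holds 1 match. The AMD1 piece, chr6:110874535-110874769 on the plus strand, holds none.
ODC1: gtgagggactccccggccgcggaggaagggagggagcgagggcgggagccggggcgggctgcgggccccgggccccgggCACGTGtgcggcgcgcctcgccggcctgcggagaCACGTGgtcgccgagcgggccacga
SRM: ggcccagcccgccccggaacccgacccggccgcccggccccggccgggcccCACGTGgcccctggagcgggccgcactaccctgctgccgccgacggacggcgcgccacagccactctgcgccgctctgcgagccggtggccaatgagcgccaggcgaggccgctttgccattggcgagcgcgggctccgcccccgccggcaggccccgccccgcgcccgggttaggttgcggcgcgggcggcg
AMD1: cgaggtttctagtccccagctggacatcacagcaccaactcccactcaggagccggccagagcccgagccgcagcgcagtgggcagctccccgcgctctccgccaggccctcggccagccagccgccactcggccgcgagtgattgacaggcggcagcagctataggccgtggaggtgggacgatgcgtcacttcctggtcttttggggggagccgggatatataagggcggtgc

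Of the 10 genes, 6 have a RefSeq window (ODC1, AMD1, SRM, SMS, SAT1 and OAZ2), and 2 of the 6 hold CACGTG on either strand, the motif being its own reverse complement. Over the whole RefSeq table, 8.77% of 27305 gene symbols hold it in at least 1 window, and 7.26% of 35116 single windows of this length. A match is a description of the letters and shows no binding. The windows of SMS, SAT1 and OAZ2 hold no CACGTG. SMOX, PAOX, AZIN1 and AZIN2 have no window and were not searched.

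The title of the series names let-7, the microRNA family whose seed (bases 2 to 8) is the same in all 8 let-7 5p forms matched in the RefSeq table. One of them is printed with its seed in capitals, because the search below used its complement.
hsa-let-7a-5p: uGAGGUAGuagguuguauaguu

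The complement of the seed, CTACCTC, occurs in 0 of the 41 protein-coding transcripts that GENCODE release 29 lists for the 10 genes. Among all 83129 protein-coding transcripts 14.4% hold it. Counted by gene, 23.9% of 19669 protein-coding genes hold it in at least 1 transcript. The absence of these letters draws no statement about let-7 regulation by other means.

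The library labels were checked first. MYCN stood between 4803 and 6804 scaled TPM in the 6 libraries of the amplified lines and between 26.5 and 28.4 in SH-SY5Y. MYC went the other way, at 89.3 to 91.2 in SH-SY5Y, 0 to 0.186 in Kelly and 0.387 to 0.71 in BE(2)C. The part of MYC in any result was not tested. Scaled TPM is a length-normalised share of the gene RNA in a library, rescaled so that the lines can be set side by side. All 8 sympathetic neuroblast markers were present in each line, while the epithelial, hepatic and erythroid lists summed to at most 1.94 scaled TPM in any library, with KRT5, KRT14, ALB and HBB at 0. Of 5 leukocyte markers CD3E was at 0 throughout, and the list summed to 2.72 to 8.32 in Kelly, 6.75 to 13.3 in BE(2)C and 5.19 to 6.51 in SH-SY5Y, nearly all of it LYZ and CD14. The fibroblast markers summed to 12.8 to 34.1 scaled TPM in BE(2)C, 3.41 to 4.82 in Kelly and 7.85 to 12.2 in SH-SY5Y; the part of these cell types in any result was not tested. Synthetic spike-in RNA made up 83.7% to 90.6% of the deposited total, and mitochondrial genes took 30.6% ± 5.52 (SD, n = 3) of the gene total in BE(2)C against 17.6% in each of the other lines. Kelly stood apart in its spike-ins: between Kelly and the other lines a spike-in shifted by as much as 1.38 on the log2 scale relative to the rest, against at most 0.18 between BE(2)C and SH-SY5Y. HSPA8, a chaperone gene of very high level in most cells, stood at only 0.638 to 15.3 scaled TPM, so levels compared between genes here are uncertain.

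Of the 10 genes, 9 passed the filter on low values (1 scaled TPM or more in at least 3 libraries) and were tested; AZIN2 did not pass. ODC1 was the most abundant of the 10 in every line, and its RNA ranked at percentile 98.8 to 99.4 of all genes. SRM and SMS followed at 177 to 455 scaled TPM in single libraries. AZIN1, OAZ2 and AMD1 lay between 33.0 and 182. The 3 breakdown enzymes lay between 0 and 8.61, and AZIN2 did not exceed 0.571.

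**Figure D1:**
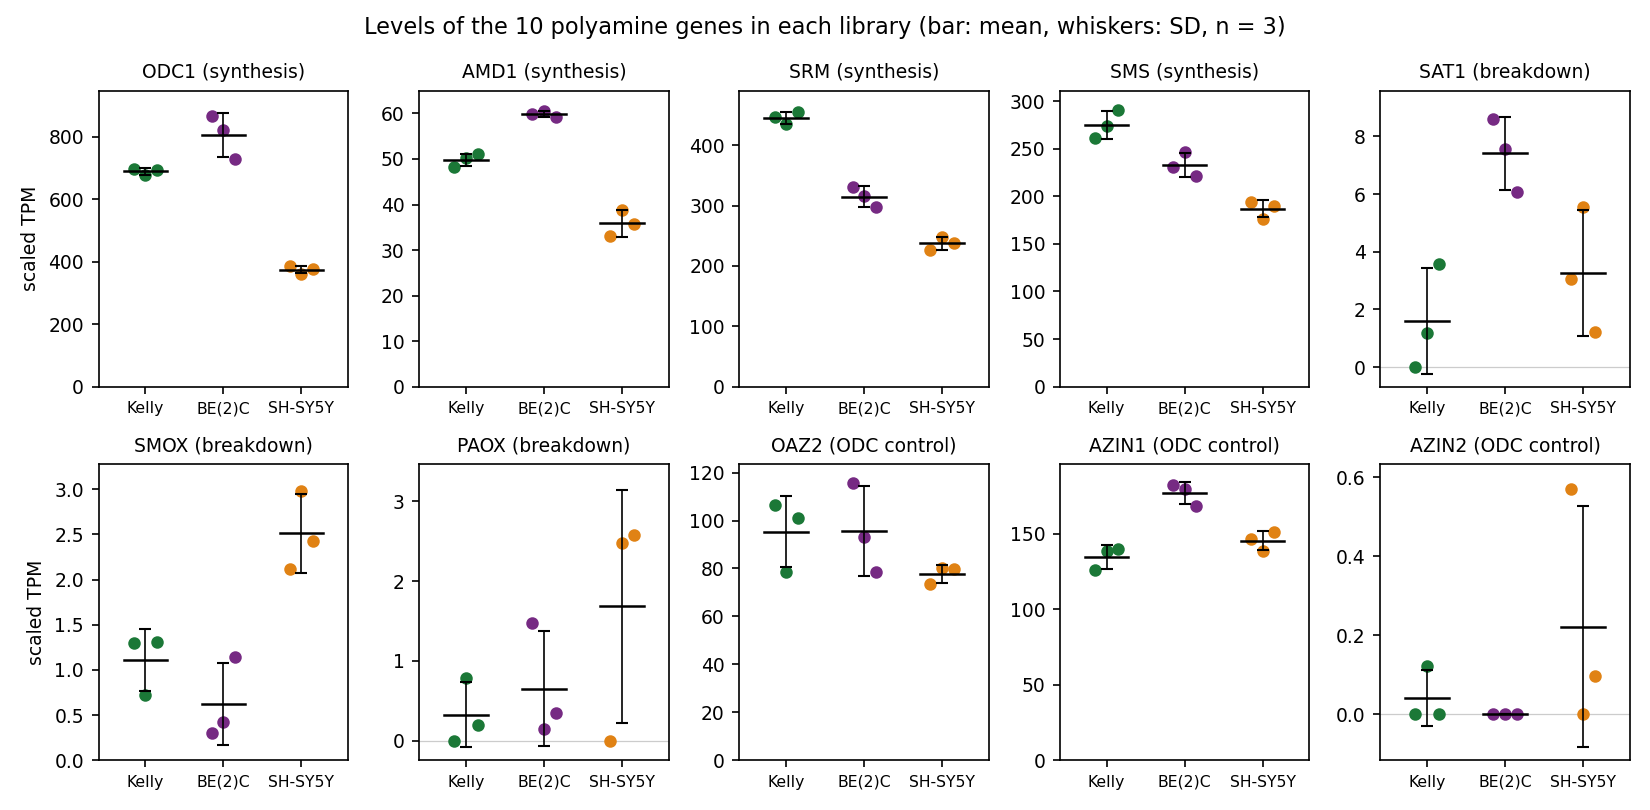
Scaled TPM of each of the 10 genes (linear vertical axis, a separate range for each gene) in the 9 libraries, with 1 point per library, coloured by line, a bar at the mean of each line and whiskers of 1 SD (n = 3). SMOX is highest in SH-SY5Y, SAT1 and AZIN1 are highest in BE(2)C, and all 6 libraries of Kelly and BE(2)C sit above the 3 of SH-SY5Y for ODC1, AMD1, SRM and SMS.

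Each of the 4 synthesis enzymes was higher in BE(2)C and in Kelly than in SH-SY5Y under the main scaling, and in both comparisons the groups of libraries did not overlap. Both comparisons use the same SH-SY5Y libraries, so they are not independent of each other. In BE(2)C against SH-SY5Y, 5 of the 9 tested genes were higher and 1 was lower, and in Kelly against SH-SY5Y 4 were higher and 1 was lower. Calls were frequent over all genes too: 28.6% of all tested genes were higher and 30.7% lower in BE(2)C (59.4% in all), and 28.1% were higher and 27.2% lower in Kelly (55.3% in all). The 3 libraries of 1 line lay wholly above or below those of the other for 7 of the 9 genes in BE(2)C against SH-SY5Y, where 66.1% of all tested genes did so, and for 5 of 9 in Kelly against SH-SY5Y, where 63.7% did. The median log2 difference of the 9 genes was 0.31 in BE(2)C and 0.28 in Kelly, and that of all 13076 tested genes was -0.04 and 0.00. Here and below, p-values are from limma with Benjamini-Hochberg adjustment over all 13076 genes. A difference is on the log2(scaled TPM + 1) scale, with its standard error from the fit. Since a level is a share of the RNA of a culture, fewer expressing cells and less RNA per cell cannot be told apart.

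ODC1, the first and most tightly controlled step of synthesis, lies on chromosome 2 (GRCh38 chr2:10439968-10448504, minus strand), on the same arm as MYCN and 5.49 Mb from it. Its RNA stood at 698, 677 and 694 scaled TPM in Kelly, at 867, 823 and 727 in BE(2)C and at 385, 362 and 376 in SH-SY5Y. Every library of the amplified lines was above every SH-SY5Y library, and those of BE(2)C were above those of Kelly. The difference from SH-SY5Y was 1.10 ± 0.07 (SE) in BE(2)C, adjusted p = 1.22e-06 in limma. In Kelly it was 0.88 ± 0.07, with an adjusted p of 5.99e-06 in limma. Set among all tested genes, these differences were at percentile 89.4 in BE(2)C and 85.2 in Kelly, so more than 1 gene in 10 differed upwards by as much.

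AMD1, which commits S-adenosylmethionine to polyamine synthesis, lies on chromosome 6 (GRCh38 chr6:110874770-110895713, plus strand). Its level was 48.2, 50.1 and 51.0 scaled TPM in Kelly, 59.9, 60.6 and 59.3 in BE(2)C and 33.0, 38.8 and 35.7 in SH-SY5Y. The 3 lines did not overlap at any point, with BE(2)C highest and SH-SY5Y lowest. The log2 difference from SH-SY5Y was 0.73 ± 0.08 in BE(2)C (limma, adjusted p = 4.51e-05) and 0.47 ± 0.08 in Kelly (adjusted p = 0.000903). GENCODE also lists 4 AMD1 pseudogenes, which could share reads with it.

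SRM, which joins an aminopropyl group to putrescine, was highest in Kelly rather than in BE(2)C (GRCh38 chr1:11054584-11060024, minus strand). It stood at 447, 435 and 455 scaled TPM in Kelly, 331, 317 and 297 in BE(2)C and 227, 247 and 238 in SH-SY5Y. The 3 lines formed separate steps with no overlap. The log2 difference from SH-SY5Y was 0.91 ± 0.06 in Kelly (limma, adjusted p = 1.98e-06) and 0.41 ± 0.06 in BE(2)C (adjusted p = 0.000308). SRM has 2 listed pseudogenes.

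SMS, the enzyme that completes spermine, showed the same order with smaller steps (GRCh38 chrX:21940573-21994835, plus strand). It stood at 261, 274 and 291 scaled TPM in Kelly, 231, 246 and 221 in BE(2)C and 194, 177 and 190 in SH-SY5Y. The lowest Kelly library was above the highest BE(2)C library by a small margin, and both lines were above SH-SY5Y. The log2 difference from SH-SY5Y was 0.56 ± 0.07 in Kelly (limma, adjusted p = 0.000102) and 0.31 ± 0.07 in BE(2)C (adjusted p = 0.00294).

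These 4 differences depended on how the lines were put on 1 scale. With gene totals alone, without the trimmed-mean factor, the median of all tested genes moved by -0.40 in BE(2)C against SH-SY5Y, and with the values as deposited by -0.31. In Kelly against SH-SY5Y the shifts were -0.12 and -0.43. The share of higher genes among the calls went from 48.2% to 23.6% and 18.2% in BE(2)C, and from 50.8% to 41.5% and 12.1% in Kelly. In BE(2)C against SH-SY5Y, the log2 difference of SRM became -0.05 with gene totals and -0.16 as deposited, and that of SMS -0.14 and -0.25. Quantile scaling gave 0.084 for SRM (limma, adjusted p = 0.207) and -0.012 for SMS, and with mitochondrial genes left out of the total SMS gave 0.10 (adjusted p = 0.163). In Kelly against SH-SY5Y, the log2 difference as deposited was 0.16 for ODC1 (limma, adjusted p = 0.277) and 0.19 for SRM (adjusted p = 0.202), and it was -0.20 for AMD1 and -0.15 for SMS. As deposited, the AMD1 difference in BE(2)C was 0.15 and did not pass (limma, adjusted p = 0.339), whereas ODC1 in BE(2)C kept its call at 0.52.

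Distances from the median gene kept their sign but not their size. Under the main scaling, gene totals and deposited values alike, each of the 4 synthesis enzymes was above the median tested gene in both comparisons with SH-SY5Y. In BE(2)C the distance from the median on the log2 scale was 1.14 for ODC1, 0.77 for AMD1, 0.44 for SRM and 0.35 for SMS under the main scaling, and 0.87, 0.49, 0.19 and 0.098 as deposited. In Kelly the 4 distances were 0.88, 0.47, 0.91 and 0.56 under the main scaling, and 0.60, 0.23, 0.62 and 0.28 as deposited. In Kelly each of the 4 differences from SH-SY5Y was smaller than the largest spike-in shift between these lines (1.38), and whether the 2 are connected was not tested. Set beside the median absolute shift of the 61 spike-ins (0.28), each of the 4 differences was larger under the main scaling and smaller as deposited.

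**Figure D2:**
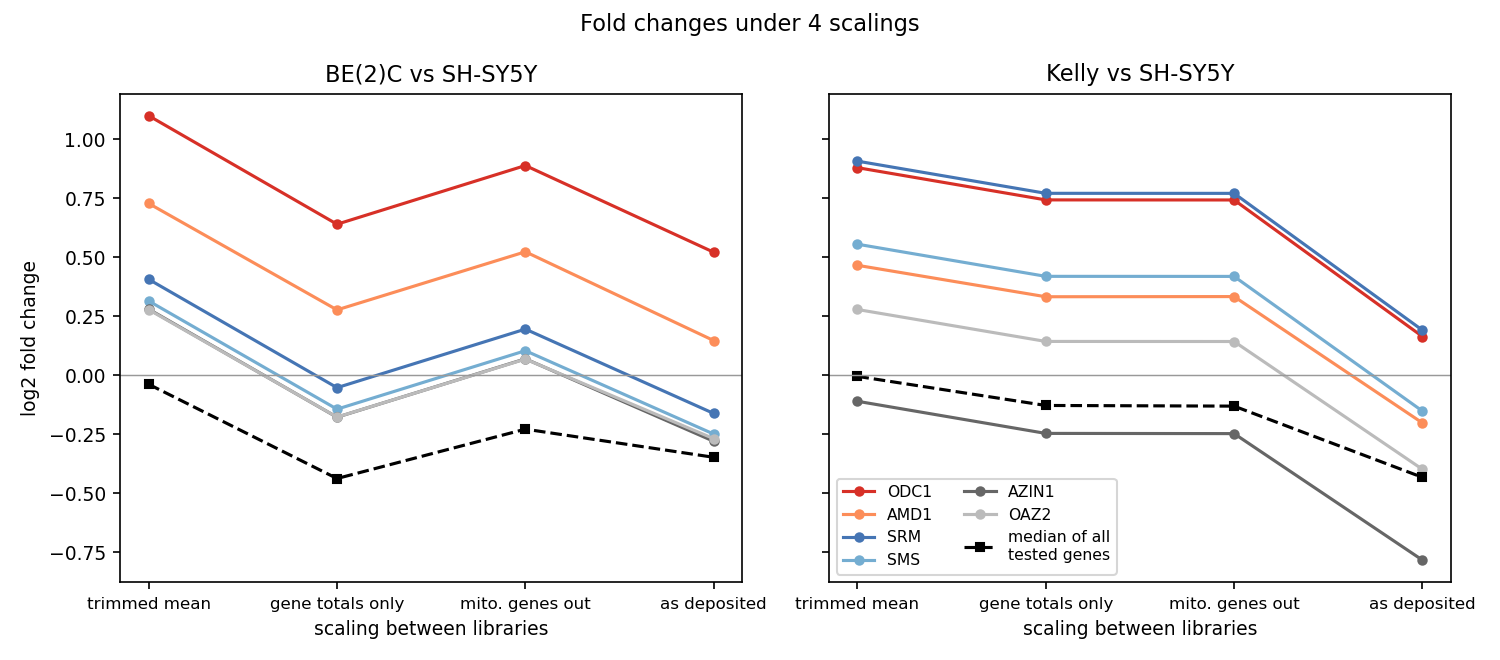
Log2 fold change (vertical axis) of ODC1, AMD1, SRM, SMS, AZIN1 and OAZ2 in each amplified line against SH-SY5Y under 4 scalings of the libraries (horizontal axis), with the median of all tested genes as a dashed line. The genes shift together between scalings, ODC1 stays above 0 under all 4 in both lines, and SRM and SMS in BE(2)C fall below 0 with gene totals and with deposited values.

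Among the breakdown enzymes, all of low level, SMOX was lower in both amplified lines than in SH-SY5Y, and SAT1 differed between the amplified lines themselves. SMOX, which turns spermine back into spermidine and releases hydrogen peroxide, stood at 2.12, 2.98 and 2.43 scaled TPM in SH-SY5Y. It stood at 1.30, 0.716 and 1.31 in Kelly and at 0.3005, 0.426 and 1.14 in BE(2)C. All SH-SY5Y libraries were above all others, while Kelly and BE(2)C overlapped. The log2 difference from SH-SY5Y was -1.14 ± 0.23 in BE(2)C (limma, adjusted p = 0.00215) and -0.74 ± 0.23 in Kelly (adjusted p = 0.0218). The difference in BE(2)C kept its call under each alternative in which SMOX was tested, whereas that in Kelly was lost without Kelly replicate 2, SH-SY5Y replicate 2 or SH-SY5Y replicate 3, with adjusted p-values in limma of up to 0.0834, and with a pseudocount of 0.1 (adjusted p = 0.0641). Kelly and BE(2)C differed by 0.40 (limma, adjusted p = 0.177), and by 0.62 without BE(2)C replicate 3 (adjusted p = 0.042).

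SAT1, the inducible acetyltransferase that starts polyamine breakdown and export, stood at 8.61, 7.55 and 6.07 scaled TPM in BE(2)C. It was listed at 0, 1.19 and 3.59 in Kelly and stood at 3.04, 5.54 and 1.203 in SH-SY5Y. BE(2)C did not overlap either line, and the spread within Kelly and SH-SY5Y was as wide as the gap between them. Kelly was lower than BE(2)C by -1.95 ± 0.55 on the log2 scale (limma, adjusted p = 0.0142), a call kept in each of the 19 alternatives in which SAT1 was tested. BE(2)C against SH-SY5Y gave 1.11 ± 0.55 and did not pass (limma, adjusted p = 0.109, 95% interval -0.13 to 2.34), except with quantile scaling (adjusted p = 0.045). Kelly against SH-SY5Y gave -0.84 and did not pass (limma, adjusted p = 0.22), except without Kelly replicate 3, where the adjusted p was 0.0427.

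PAOX, the peroxisomal oxidase of acetylated polyamines, was near the limit of the table. It was listed at 0, 0.784 and 0.193 scaled TPM in Kelly, 1.47, 0.141 and 0.350 in BE(2)C and 0, 2.48 and 2.57 in SH-SY5Y. Within each line at least 1 library was far from the others, and the lines overlapped. No difference passed in limma with all 9 libraries, the smallest adjusted p being 0.186. Without SH-SY5Y replicate 1, where PAOX is at 0, its log2 difference from SH-SY5Y was -1.17 in BE(2)C (limma, adjusted p = 0.0273) and -1.44 in Kelly (adjusted p = 0.0119).

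Of the control proteins, AZIN1 was highest in BE(2)C and OAZ2 differed little between the lines. AZIN1, an ornithine decarboxylase relative without enzyme activity that frees the enzyme from antizyme, stood at 182, 179 and 169 scaled TPM in BE(2)C. In SH-SY5Y it stood at 146, 139 and 151, and in Kelly at 126, 138 and 140. BE(2)C was above both other lines without overlap, and Kelly and SH-SY5Y overlapped. The log2 difference was 0.28 ± 0.07 against SH-SY5Y (limma, adjusted p = 0.00531). That call was lost with mitochondrial genes left out of the total (0.07) and with quantile scaling (0.01), and its sign changed with gene totals (-0.18) and as deposited (-0.28). Kelly against SH-SY5Y gave -0.11 (limma, adjusted p = 0.19, 95% interval -0.26 to 0.04). It passed as lower in Kelly as deposited (-0.78), with mitochondrial genes left out of the total (-0.25) and with quantile scaling (-0.30).

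OAZ2, an antizyme whose synthesis needs a polyamine-driven ribosomal frameshift, stood at 106, 78.5 and 101 scaled TPM in Kelly, 116, 93.0 and 78.4 in BE(2)C and 73.4, 80.3 and 79.7 in SH-SY5Y. The 3 lines overlapped. The log2 difference from SH-SY5Y was 0.28 ± 0.15 in both BE(2)C and Kelly (limma, adjusted p = 0.144 and 0.149), with a 95% interval from -0.06 to 0.62 in each. It was 0.41 in BE(2)C without BE(2)C replicate 3 (limma, adjusted p = 0.04) and 0.41 in Kelly without Kelly replicate 2 (adjusted p = 0.0459). GENCODE lists 2 genes on the opposite strand that overlap OAZ2, and 1 (AZIN1-AS1) that overlaps AZIN1. AZIN2, the antizyme inhibitor best known from brain and testis, was listed at 0 in 6 of the 9 libraries, and its highest value was 0.571 scaled TPM in SH-SY5Y replicate 1.

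The 2 amplified lines differed from each other in 6 of the 9 tested genes: SRM and SMS were higher in Kelly, and ODC1, AMD1, SAT1 and AZIN1 were lower. Over all tested genes, 27.9% were higher and 24.6% lower in Kelly than in BE(2)C (52.5% in all). The libraries did not overlap for the same 6 of the 9, against 58.3% of all tested genes. SRM gave 0.50 ± 0.06 on the log2 scale (limma, adjusted p = 0.000109) and kept its call under each alternative. AZIN1 gave -0.39 ± 0.07 (limma, adjusted p = 0.000963), and the call was lost with gene totals alone (-0.07). SMS gave 0.24 ± 0.07 (limma, adjusted p = 0.0141) and did not pass without Kelly replicate 3 (0.20), as deposited (0.097) or in limma without a trend (adjusted p = 0.0537).

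The ODC1 and AMD1 differences between the amplified lines were small and less stable. ODC1 gave -0.22 ± 0.07 (limma, adjusted p = 0.0238) and AMD1 -0.26 ± 0.08 (adjusted p = 0.0207). The ODC1 call was lost when Kelly replicate 2 or 3, or BE(2)C replicate 1 or 2, was left out, and the AMD1 call when Kelly replicate 1 or BE(2)C replicate 2 was left out. With gene totals alone the signs changed, to 0.10 for ODC1 and 0.056 for AMD1. Apart from SAT1, each of the 9 differences was within the largest spike-in shift between these lines (1.202). The median absolute shift of the 61 spike-ins was 0.27. ODC1, AMD1 and SMS differed by less than this, and SRM, AZIN1 and SAT1 by more.

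**Figure D3:**
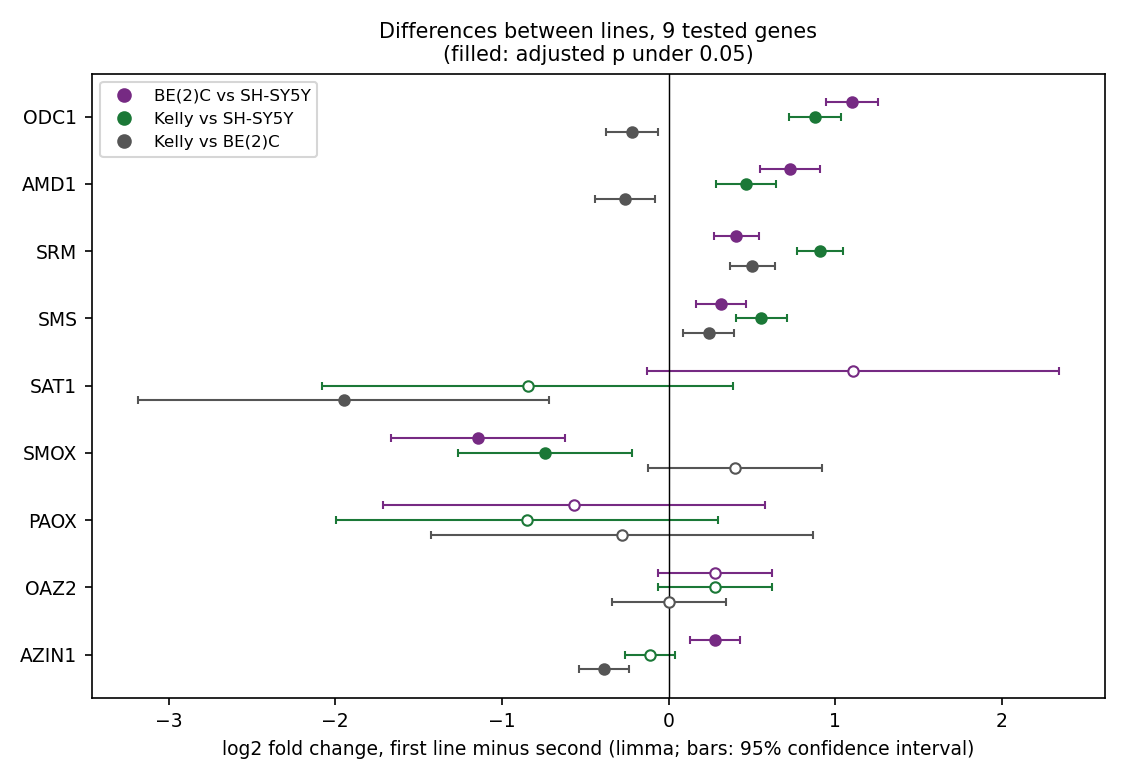
Log2 difference of each of the 9 tested genes in the 3 comparisons between lines, as points with 95% intervals from limma; filled points passed an adjusted p of 0.05. The 4 synthesis enzymes lie to the right of 0 against SH-SY5Y in both amplified lines, SMOX lies to the left, and the intervals of SAT1 and PAOX are the widest.

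A ratio of 2 genes within a library does not depend on the scaling between libraries beyond the pseudocount, which matters where a gene is near 0. So 4 ratios were compared across the lines by an exact permutation test over the 1680 assignments of 9 libraries to 3 lines, adjusted over the 4 ratios. The smallest p this design allows is 0.00357. None passed 0.05 after adjustment. AMD1 relative to ODC1 was -3.38 ± 0.16 (log2, SD, n = 3 libraries) in SH-SY5Y, -3.79 ± 0.05 in Kelly and -3.74 ± 0.12 in BE(2)C, with no overlap between SH-SY5Y and the amplified lines (exact permutation p = 0.025, adjusted 0.05). SRM relative to SMS was 0.34 ± 0.13 in SH-SY5Y, 0.70 ± 0.07 in Kelly and 0.44 ± 0.08 in BE(2)C, with Kelly above both without overlap (exact permutation p = 0.0143, adjusted 0.05). Without SH-SY5Y replicate 2 the adjusted exact permutation p of SRM to SMS was 0.0286, and that of AMD1 to ODC1 rose to 0.118. SRM to SMS passed under no other alternative, and without Kelly replicate 1 its adjusted exact permutation p was 0.114.

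The ratios that set synthesis against breakdown, and inhibitor against antizyme, varied more within lines. ODC1 relative to SAT1 was 7.04 ± 1.09 (log2, SD, n = 3 libraries) in SH-SY5Y, 9.79 ± 2.69 in Kelly and 6.76 ± 0.12 in BE(2)C (exact permutation p = 0.0607, adjusted 0.081). Kelly replicate 1, with SAT1 at 0, set the Kelly mean: without it the range of the line means was 1.54 in place of 3.03, and with a pseudocount of 1 it was 1.73. AZIN1 relative to OAZ2 was 0.90 ± 0.10 in SH-SY5Y, 0.51 ± 0.29 in Kelly and 0.90 ± 0.23 in BE(2)C (exact permutation p = 0.118, adjusted 0.118).

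**Figure D4:**
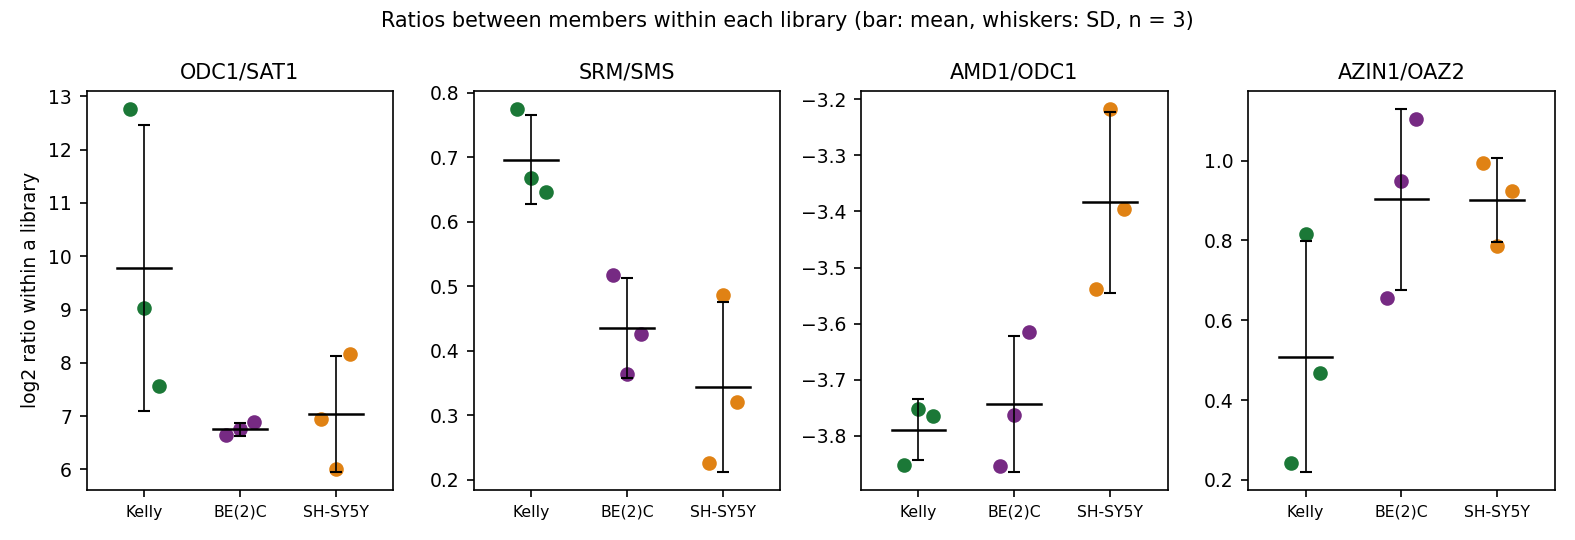
Log2 ratio of 2 genes within each library for ODC1 to SAT1, SRM to SMS, AMD1 to ODC1 and AZIN1 to OAZ2, with 1 point per library, a bar at the mean of each line and whiskers of 1 SD (n = 3). SH-SY5Y stands above both amplified lines for AMD1 to ODC1, Kelly stands above both others for SRM to SMS, and 1 Kelly library stands far above the rest for ODC1 to SAT1.

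Genes with a pattern like that of ODC1 were named by the smallest root-mean-square difference of centred log2 levels over the 9 libraries, among 8729 genes with a mean of at least 10 scaled TPM. They were GHITM (0.036), AURKAIP1 (0.060) and PSMB3 (0.071), beside a standard deviation of 0.48 for ODC1 itself over the 9 libraries. For SAT1 the nearest were C8orf76 (0.437), MARK3 (0.486) and SPATA5L1 (0.488), beside a standard deviation of 1.03. The nearest genes thus follow ODC1 closely and SAT1 only loosely. SAT1 itself lay between 0 and 8.61 scaled TPM, below the mean of 10 asked of the compared genes, and spread widely within Kelly and SH-SY5Y. How much of the looseness comes from this was not tested.

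The surrounding pathway was read from 5 lists with 33 genes, of which 26 were tested: other antizymes and catabolic enzymes, hypusination, S-adenosylmethionine supply and methionine salvage, ornithine and arginine supply, and polyamine transport. In BE(2)C against SH-SY5Y, 14 of the 26 were higher, 5 lower and 7 did not pass, with a median log2 difference of 0.50. Over all tested genes 28.6% were higher and 30.7% lower, with a median of -0.04. The balance of these calls turned with the scaling, to 9 higher and 10 lower with gene totals and to 5 higher and 8 lower of 23 tested as deposited. In Kelly against SH-SY5Y, 11 were higher, 6 lower and 9 did not pass, with a median of 0.39, beside 28.1% higher and 27.2% lower over all tested genes. As deposited this became 4 higher and 11 lower of 23 tested. SLC18B1 and SLC12A8, called higher in both comparisons with SH-SY5Y, passed the filter on low values through the amplified lines alone. Passing in that way favours a call of higher, so the counts and medians against SH-SY5Y carry little weight. In Kelly against BE(2)C, 6 were higher, 8 lower and 12 did not pass, with a median of -0.06, beside 27.9% higher and 24.6% lower over all tested genes. With gene totals it became 8 higher and 3 lower.

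The largest differences were in transport of the precursor and of the polyamines. SLC7A2, an importer of arginine, lysine and ornithine, stood at 209, 155 and 156 scaled TPM in BE(2)C, 42.5, 47.7 and 49.8 in Kelly and 3.53, 3.56 and 3.35 in SH-SY5Y. The lines were separated by far more than the spread within them. Against SH-SY5Y the log2 difference was 5.27 ± 0.13 in BE(2)C and 3.41 ± 0.13 in Kelly (limma, adjusted p = 9.05e-09 and 7.29e-08). The related importer SLC7A1 was higher by 0.42 ± 0.06 in Kelly and 0.38 ± 0.06 in BE(2)C (limma, adjusted p = 0.000195 and 0.000315), with the sign changed as deposited in both (-0.27 and -0.18) and with gene totals in BE(2)C (-0.075).

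Among transporters of polyamines, 4 of 6 tested were higher and 2 lower in BE(2)C than in SH-SY5Y, and 3 were higher and 1 lower in Kelly. Over all tested genes 59.4% were called in BE(2)C and 55.3% in Kelly. Some of these transporter calls rest on low levels. SLC12A8, called higher in both, had a mean of 0.038 scaled TPM in SH-SY5Y, against 1.34 for Kelly and 1.33 for BE(2)C. SLC47A1, called lower in BE(2)C, was at 0 there and had a mean of 1.74 in SH-SY5Y. SLC12A8 and SLC18B1 passed the filter on low values through the amplified lines alone, which favours a call of higher, so the counts carry little weight. SLC18B1, the vesicular polyamine transporter, stood at 34.2, 31.9 and 36.9 scaled TPM in Kelly, between 11.2 and 14.2 in the BE(2)C libraries and 0.511, 0 and 0 in SH-SY5Y. It was all but absent from SH-SY5Y and present in each library of the other lines. The fitted difference was 4.94 ± 0.20 in Kelly and 3.62 ± 0.20 in BE(2)C (limma, adjusted p = 1.13e-07 and 6.22e-07), and its size depends on the value added before the logarithm. SLC3A2, a heavy chain of amino acid transporters that has been tied to polyamine export, was higher by 2.02 ± 0.19 in BE(2)C and 1.89 ± 0.19 in Kelly (limma, adjusted p = 1.77e-05 and 3.11e-05). ATP13A2, which releases spermine from lysosomes, was lower, by -1.88 ± 0.10 in BE(2)C and -1.04 ± 0.10 in Kelly (limma, adjusted p = 5.64e-07 and 3.13e-05). Between the amplified lines, Kelly had more of both SLC18B1, by 1.32 ± 0.20, and ATP13A2, by 0.85 ± 0.10 (limma, adjusted p = 0.00053 and 0.00013); with a pseudocount of 0.1 the SLC18B1 difference did not pass (adjusted p = 0.0919).

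Ornithine itself is made from arginine by arginase. ARG2, the mitochondrial arginase, stood at 22.9, 39.6 and 32.5 scaled TPM in SH-SY5Y, 16.4, 14.7 and 12.6 in Kelly and 3.57, 7.23 and 3.05 in BE(2)C. The order of the lines was the reverse of that of SLC7A2, again without overlap. Against SH-SY5Y the log2 difference was -2.58 ± 0.29 in BE(2)C (limma, adjusted p = 5.47e-05) and -1.04 ± 0.29 in Kelly (adjusted p = 0.013, and 0.0514 without SH-SY5Y replicate 2). ARG2 was thus higher in Kelly than in BE(2)C, by 1.54 ± 0.29 (limma, adjusted p = 0.00175), and SLC7A2 lower, by -1.86 ± 0.13 (adjusted p = 4.04e-06). SLC25A15, which carries ornithine into mitochondria, was higher in Kelly than in BE(2)C by 0.44 ± 0.10 (limma, adjusted p = 0.00618). Against SH-SY5Y it gave 0.29 ± 0.10 in Kelly (limma, adjusted p = 0.0409), with the sign changed as deposited (-0.37) and the call lost without Kelly replicate 2 or 3 or SH-SY5Y replicate 2 or 3. OAT, which moves ornithine towards glutamate and proline, was lower in BE(2)C by -0.43 ± 0.13 (limma, adjusted p = 0.0144).

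Spermidine donates the side chain of hypusine, the modified lysine of the translation factor eIF5A. EIF5A stood at 231, 282 and 338 scaled TPM in Kelly, 291, 254 and 260 in BE(2)C and 141, 125 and 110 in SH-SY5Y. Both amplified lines were above SH-SY5Y and overlapped each other. Against SH-SY5Y the log2 difference was 1.10 ± 0.14 in BE(2)C and 1.16 ± 0.14 in Kelly (limma, adjusted p = 0.000115 and 9.18e-05). In Kelly as deposited it was 0.44 and did not pass (limma, adjusted p = 0.0592).

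The other hypusination genes did not all move with EIF5A. EIF5A2, its paralog, was higher by 1.84 ± 0.20 in BE(2)C and 1.30 ± 0.20 in Kelly (limma, adjusted p = 4.04e-05 and 0.000445), with less in Kelly than in BE(2)C (-0.54 ± 0.20, adjusted p = 0.0447, a call lost in 13 of 20 alternatives, among them without Kelly replicate 1 or 3, any one BE(2)C library or SH-SY5Y replicate 3). DOHH, the second enzyme of hypusine formation, was higher by 0.67 ± 0.11 in BE(2)C and 0.57 ± 0.11 in Kelly (limma, adjusted p = 0.000579 and 0.00178). As deposited DOHH gave 0.098 and -0.11, and with gene totals in BE(2)C 0.22, which did not pass. DHPS, which transfers the spermidine side chain, was lower, by -1.07 ± 0.32 in BE(2)C and -1.001 ± 0.32 in Kelly (limma, adjusted p = 0.0173 and 0.0253). In Kelly DHPS spread from 9.44 to 27.4 scaled TPM, reaching into the range of SH-SY5Y (27.0 to 41.8). Its call was lost in BE(2)C without BE(2)C replicate 1 or SH-SY5Y replicate 3, and in Kelly without Kelly replicate 2 or 3 or SH-SY5Y replicate 2 or 3, with adjusted p-values in limma of up to 0.0884.

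Of the 8 tested genes that supply S-adenosylmethionine or salvage its methylthio group, 4 were higher and none lower in BE(2)C than in SH-SY5Y, and 2 were higher and 3 lower in Kelly. These shares called lie beside 59.4% and 55.3% over all tested genes. AHCY, which clears S-adenosylhomocysteine, was higher by 0.86 ± 0.05 in BE(2)C and 0.59 ± 0.05 in Kelly (limma, adjusted p = 1.21e-06 and 1.51e-05), the sign in Kelly changing as deposited (-0.12). MTAP, which recycles the methylthioadenosine left by SRM and SMS, stood at 49.6, 54.1 and 43.2 scaled TPM in BE(2)C, 24.6, 25.4 and 27.5 in Kelly and 21.2, 26.7 and 29.4 in SH-SY5Y. BE(2)C was above both lines, which overlapped. MTAP differed by 0.91 ± 0.14 from SH-SY5Y in BE(2)C (limma, adjusted p = 0.000352) and by -0.89 ± 0.14 in Kelly against BE(2)C (adjusted p = 0.000493). ENOPH1, a later salvage enzyme, was higher by 0.77 ± 0.08 in BE(2)C and 0.52 ± 0.08 in Kelly (limma, adjusted p = 3.9e-05 and 0.000598), the latter -0.18 as deposited. As deposited, AHCY, MTAP and ENOPH1 in BE(2)C did not pass (0.28, 0.30 and 0.19).

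Kelly was lower than BE(2)C in 6 of these 8 genes and higher in none, beside 24.6% lower and 27.9% higher over all tested genes. With gene totals only MAT2A and MTAP of the 6 kept their call, and the sign changed for AHCY (0.061) and ENOPH1 (0.066). The ENOPH1 call was also lost without Kelly replicate 1 or 2 or BE(2)C replicate 1 or 2. MAT2A, the synthetase that makes S-adenosylmethionine, stood at 396, 397 and 426 scaled TPM in Kelly and 562, 689 and 796 in BE(2)C, a difference of -0.73 ± 0.11 without overlap (limma, adjusted p = 0.00042). Against SH-SY5Y MAT2A gave 0.52 ± 0.11 in BE(2)C (limma, adjusted p = 0.00261), and -0.053 as deposited. That call was also lost with gene totals (0.060, adjusted p in limma = 0.656) and with quantile scaling (0.16, adjusted p = 0.321). MAT2B, its regulatory subunit, was lower in Kelly than in SH-SY5Y by -1.34 ± 0.29 (limma, adjusted p = 0.00356) and ADI1, a late enzyme of methionine salvage, by -0.88 ± 0.24 (adjusted p = 0.0107). MAT2B was also lower in Kelly than in BE(2)C by -0.93 ± 0.29 (limma, adjusted p = 0.0227), a call lost with gene totals and without BE(2)C replicate 1 or 2 (adjusted p of up to 0.112). Of the 2 other antizyme and catabolism genes tested, OAZ1, the main antizyme, did not pass in any comparison and had levels of 32.6 to 78.2 scaled TPM. OAZ3 was higher in BE(2)C, compared with SH-SY5Y, by 1.58 ± 0.59 (limma, adjusted p = 0.0434), a call lost in 13 of 20 alternatives, among them leaving out any one Kelly library, BE(2)C replicate 1 or 2, or SH-SY5Y replicate 3.

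**Figure D5:**
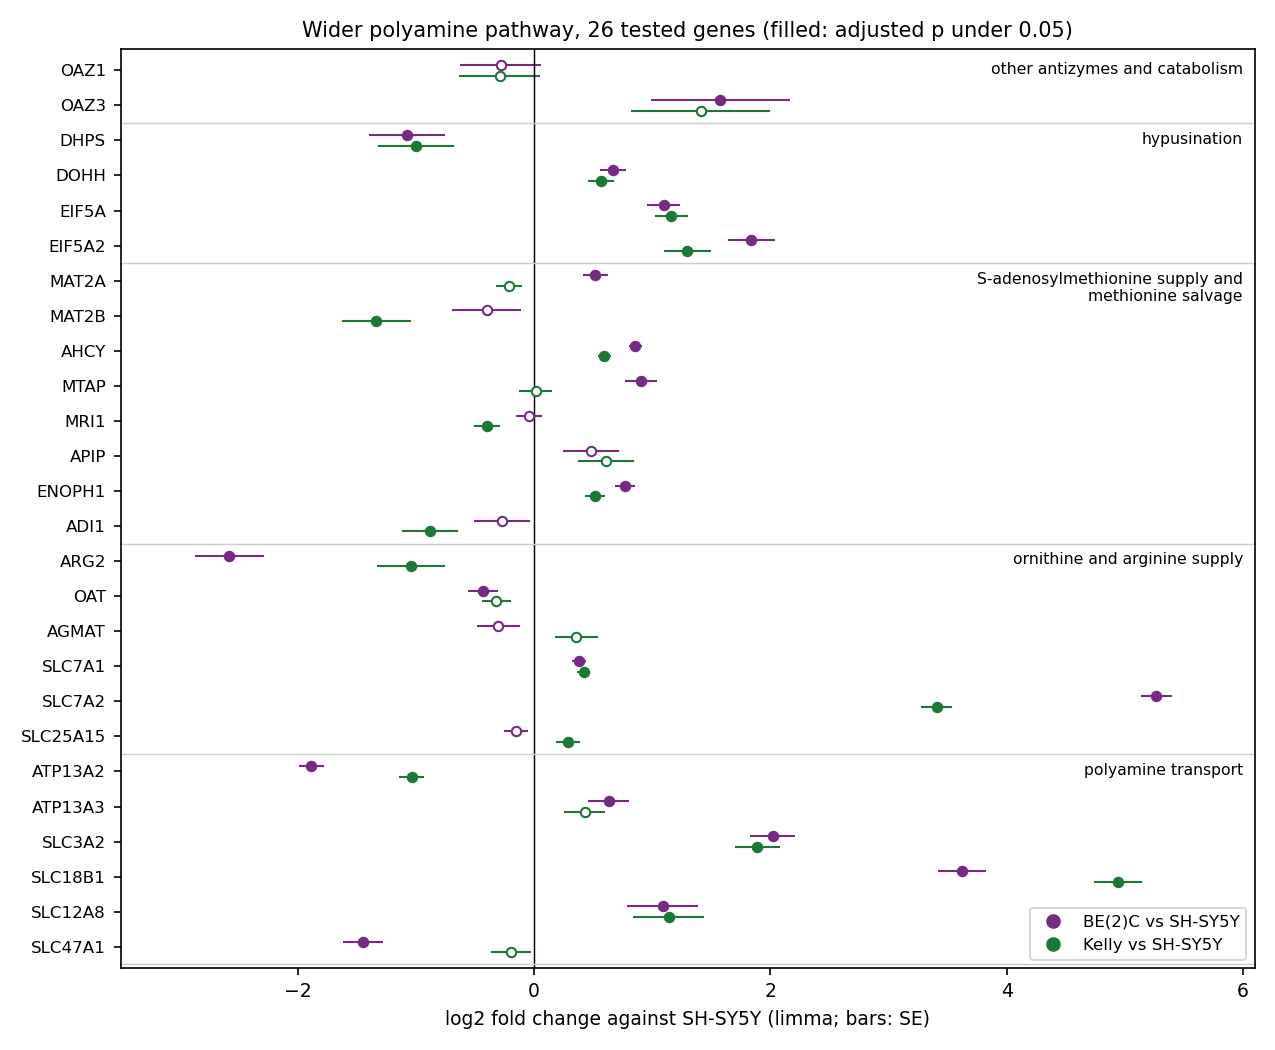
Log2 difference from SH-SY5Y of the 26 tested genes of the wider pathway, grouped by list, in BE(2)C and Kelly (horizontal axis, bars of 1 SE), with points filled where the adjusted p from limma was under 0.05. SLC7A2 and SLC18B1 lie farthest to the right in both lines, and ARG2 and ATP13A2 farthest to the left in BE(2)C.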

How the data were processed

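Polyadenylated RNA was sequenced from 9 libraries, 3 of each line. The authors' deposited table is on a log10 scale and was read as log10(TPM + 1) with spike-ins in the total. Its back-transformed sums were 966592 to 980009 per library, somewhat short of a full TPM total. Where the missing part lies was not tested. GRCh38, Salmon 0.3.2 and HISAT 0.1.6 are named in the submitters' processing notes without their roles, and the step from transcripts to genes was not given in the sources used here. Per the labels' protocols, libraries were made with a NEBNext Ultra kit. TPM keeps no depth, so depth is unknown and no counting interval is given.

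Values were back-transformed, rescaled to the gene total without spike-ins, and divided by an unweighted trimmed-mean factor, giving scaled TPM. The factor left out 30% of log ratios and 5% of levels at each end. limma 3.58.1 in R 4.3.3 with a trend was fitted to log2(scaled TPM + 1) of all 9 libraries. Genes that reached 1 scaled TPM in 3 or more libraries were kept. Tests were two-sided, and genes were called at a Benjamini-Hochberg adjusted p under 0.05. The fit was also run on simulated data with few changed genes, in 1 line. That run does not cover lines that differ in as many genes as these do. Ratios within a library used a pseudocount of 0.1. From each wider list, up to 3 called genes with the largest absolute change per comparison and at least 10 scaled TPM in the higher line were named; OAZ1 and the calls of named genes in a further comparison were added after their values were seen. The members and lists were chosen with earlier results of these data known. The labels do not say that the numbers pair samples, and same-numbered libraries did not deviate together (9 correlations of -0.05 to 0.03). Such values show no strong shared deviation, but they cannot show that same-numbered libraries were handled separately. Alternatives were other scalings, pseudocounts, filters and fits, a replicate block and leaving out each library.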

Additional observations from a re-analysis of the deposited data

How the results depend on the processing

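Results of the fit were recomputed under 20 alternatives (15 to 19 for PAOX, SMOX and SAT1, which fell below the filter in the others) and ratios under 12, and the cause of the changes was not tested except where the scaling itself sets them. With gene totals alone, the log2 difference in BE(2)C against SH-SY5Y became -0.053 for SRM, -0.14 for SMS and -0.18 for AZIN1, and that in Kelly against BE(2)C became 0.10 for ODC1 and 0.056 for AMD1. The number of the 9 genes called was then 3 in BE(2)C against SH-SY5Y and 3 in Kelly against BE(2)C, in place of 6 each. With values as deposited, BE(2)C against SH-SY5Y gave -0.16 for SRM, -0.25 for SMS and -0.28 for AZIN1, and 1 gene of 6 tested was called, SMOX, SAT1 and PAOX being below the filter. Kelly against SH-SY5Y as deposited gave -0.20 for AMD1, -0.15 for SMS, -0.11 for DOHH, -0.12 for AHCY, -0.18 for ENOPH1, -0.37 for SLC25A15 and -0.27 for SLC7A1, and 1 of 6 tested genes was called in place of 5 of 9. BE(2)C against SH-SY5Y as deposited gave -0.053 for MAT2A and -0.18 for SLC7A1. With gene totals SLC7A1 in BE(2)C against SH-SY5Y was -0.075, and Kelly against BE(2)C gave 0.061 for AHCY and 0.066 for ENOPH1. With quantile scaling SMS in BE(2)C against SH-SY5Y was -0.012. Leaving out 1 library at a time, the range of the line means of SRM to SMS lay between 0.29 and 0.42 (log2). The replicate block left the members called at 6, 5 and 6, and no paired reading follows, as the labels do not say that the numbers pair the libraries. Under the block the adjusted permutation p of each ratio was 0.222, where 0.0278 was the smallest unadjusted p possible. ODC1 and SMOX in BE(2)C against SH-SY5Y, and SRM and SAT1 in Kelly against BE(2)C, kept their call in each alternative in which they were tested. The depth behind low values such as those of SMOX, PAOX and SAT1 is unknown.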
